A study of Mus musculus with 24 samples.

Results

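The genes described here encode the receptor complex with which the proximal tubule of the kidney takes up filtered protein: *Lrp2* (megalin), *Cubn* (cubilin), *Amn* (amnionless) and *Dab2* (the adaptor disabled 2). They were taken by symbol from the deposited count table, and all 4 of the 37315 genes in it were found and passed every filter on low counts. The libraries came from one total RNA of the kidney of an adult female 129S1 x Cast/Ei F1 mouse, from which aliquots were made into 6 libraries in each of 3 experiments. Experiment 1, NEBNext (100 ng), used the NEBNext Ultra kit on 100 ng of total RNA. SMARTseq (10 ng) and SMARTseq (100 pg) used the SMARTseq v4 kit, which copies whole cDNA by template switching and amplifies it, on 10 ng and 100 pg. Poly-A RNA was isolated first in all 3 experiments. Because every kidney library holds the same RNA, differences between experiments arose after RNA isolation, and p-values measure the spread between libraries only. The libraries of an experiment were prepared together, so the set of preparation cannot be told apart from kit and input. The other samples were 2 Abelson-transformed B-lineage cell clones of the same F1 background, Abl.1 and Abl.2, with 2 libraries each at 10 ng with the SMARTseq kit, and a second run of both Abl.2 libraries.

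Megalin is a very large receptor of the LDL receptor family. It binds albumin, vitamin-binding proteins, hormones and drugs in the filtrate and carries them into coated pits, and cubilin, which has no membrane span of its own, does the same for albumin, transferrin and intrinsic factor. Amnionless is the membrane protein that carries cubilin to the apical surface, and together they form the pair called cubam. Dab2 binds the tails of megalin and amnionless and links them to clathrin and AP-2. Loss of megalin or of cubam function causes protein loss in the urine.

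The genes differ in size. *Lrp2* (ENSMUSG00000027070) lies on the minus strand at chr2:69424340-69586065 of GRCm38 and has 16.7 kb of merged exons in the GENCODE M21 annotation, with 79 exons in its longest coding transcript. *Cubn* (ENSMUSG00000026726) lies on the same strand at chr2:13276338-13491813, with 14.94 kb of merged exons, while its longest coding transcript of 67 exons has 11.26 kb. *Dab2* (ENSMUSG00000022150) lies at chr15:6299788-6440712 on the plus strand and has 7.34 kb of merged exons and a transcript of 4.66 kb. *Amn* (ENSMUSG00000021278), at chr12:111271095-111276426 on the plus strand, is the short member, with 1.84 kb. Its transcript is also the richest in G and C of the 4, at 62.9%, against 49.1% for *Lrp2*, 46.4% for *Cubn* and 45.7% for *Dab2*.

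Counts were measured at SNPs, so the allelic imbalance (AI), the share of a gene's allelic counts that fell in the maternal column, compares both strains' copies of the gene within one sample. The sequence before the start site is where a difference in cis would often be sought, and it is shown for *Lrp2*, *Cubn* and *Amn* as RefSeq gives it for GRCm38.p6. This is the reference strain, neither parent of the cross, and no data here measure these stretches. Each is printed 5′ to 3′ and ends before the gene as the count table places it. Capitals mark matches to any of 4 motifs, searched on both strands of the 250 bases before the RefSeq start. The GC box was searched as GGGCGG and the box named after its letters as CCAAT. The box that positions polymerase at some start sites was searched as TATAAA. A half-site of HNF1, a factor active in the proximal tubule, was searched as GTTAAT.
Lrp2, chr2:69586066-69586279, minus strand: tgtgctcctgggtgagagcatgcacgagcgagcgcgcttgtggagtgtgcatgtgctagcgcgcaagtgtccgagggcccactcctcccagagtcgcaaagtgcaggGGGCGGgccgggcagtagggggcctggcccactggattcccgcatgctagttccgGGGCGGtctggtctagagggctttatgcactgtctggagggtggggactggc
Cubn, chr2:13491877-13492126, minus strand: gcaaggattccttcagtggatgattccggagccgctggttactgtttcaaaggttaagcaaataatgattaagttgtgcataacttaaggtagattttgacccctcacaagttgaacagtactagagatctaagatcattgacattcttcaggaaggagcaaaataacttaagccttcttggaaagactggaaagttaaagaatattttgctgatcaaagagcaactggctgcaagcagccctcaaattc
Amn, chr12:111270846-111271094, plus strand: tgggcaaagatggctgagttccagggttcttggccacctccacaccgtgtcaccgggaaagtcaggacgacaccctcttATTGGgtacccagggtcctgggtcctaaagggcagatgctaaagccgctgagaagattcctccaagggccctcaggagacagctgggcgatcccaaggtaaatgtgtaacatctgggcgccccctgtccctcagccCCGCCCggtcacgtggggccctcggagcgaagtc
The *Lrp2* stretch held 2 GC boxes, the *Amn* stretch held 1 GC box and 1 CCAAT box on the opposite strand, and the *Cubn* stretch held none of the 4 motifs. Of 32851 promoters in the RefSeq table, 32.7% held a GC box, 33.8% a CCAAT box, 12.4% a TATA box and 6.43% the HNF1 half-site in the same window. *Cubn* had 2 CpG pairs in its 250 bases and *Lrp2* had 18. *Dab2* has 2 listed start sites, of which the second had 1 match, to GTTAAT. These matches describe letters and are not evidence of binding.

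The depth was alike, with 6138693 to 6702351 allelic counts in a NEBNext library, 6360257 to 6397679 in a SMARTseq (10 ng) library and 6587951 to 6616994 in a SMARTseq (100 pg) library. Levels are given as CPM, a gene's counts per 1000000 allelic counts of the library. A gene with more SNPs collects more counts, and the number of SNPs is not in the tables, so levels were compared between libraries and never between genes. The proximal tubule was well represented, with counts for 8 of its 9 markers and a summed level of 17605 to 22177 CPM. *Miox* was listed at 0 in all libraries. Markers of other nephron segments, podocytes and endothelium were also counted, so the sample was a mixture of kidney cell types. In such a sample fewer cells of a type and less RNA per cell cannot be told apart, but neither could differ between experiments that share one RNA.

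*Lrp2* and *Cubn*, the long receptors, were counted far less often in both SMARTseq experiments than in NEBNext, while *Amn* and *Dab2* differed little. Kit and input changed together between NEBNext and either SMARTseq experiment, so their parts cannot be told apart. In NEBNext (100 ng), *Lrp2* ranged from 2473 to 3691 CPM with a median of 3095, which is 16577 to 22657 counts per library. It ranged from 984 to 1052 CPM (median 1025) in SMARTseq (10 ng) and from 882 to 968 CPM (median 933) in SMARTseq (100 pg). The 3 ranges did not overlap. After TMM scaling, *Lrp2* was 2.35-fold lower in SMARTseq (10 ng) than in NEBNext (log2 difference -1.24, SE 0.059, edgeR quasi-likelihood test with Benjamini-Hochberg adjusted p = 1.00e-16) and 2.59-fold lower in SMARTseq (100 pg) (log2 difference -1.37, SE 0.068, edgeR adjusted p = 3.55e-13).

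*Cubn* showed the larger difference. It ranged from 1078 to 1281 CPM (median 1219) in NEBNext, from 213 to 240 (median 229) in SMARTseq (10 ng) and from 232 to 279 (median 241) in SMARTseq (100 pg). No NEBNext library came near any SMARTseq library, and both SMARTseq experiments overlapped each other. *Cubn* was 4.13-fold lower in SMARTseq (10 ng) (log2 difference -2.05, SE 0.039, edgeR adjusted p = 5.99e-26) and 3.80-fold lower in SMARTseq (100 pg) (log2 difference -1.93, SE 0.052, edgeR adjusted p = 1.39e-17).

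*Amn*, the membrane partner of cubilin, ranged from 319 to 363 CPM (median 340) in NEBNext, from 229 to 254 (median 237) in SMARTseq (10 ng) and from 239 to 278 (median 250.2) in SMARTseq (100 pg). Its NEBNext libraries were above all others as a share of library totals. TMM scaling took up most of that gap, and the remaining log2 difference was -0.15 (SE 0.041, edgeR adjusted p = 0.00143) for SMARTseq (10 ng) and -0.06 (SE 0.051, edgeR adjusted p = 0.303) for SMARTseq (100 pg), with a 95% interval of -0.17 to 0.05.

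*Dab2*, the adaptor, ranged from 378 to 422 CPM (median 390) in NEBNext, from 278 to 304 (median 298) in SMARTseq (10 ng) and from 280 to 340 (median 310) in SMARTseq (100 pg). Here too the NEBNext libraries lay apart in CPM. Neither difference passed the test after scaling, with log2 differences of -0.06 (95% interval -0.13 to 0.02, edgeR adjusted p = 0.146) and 0.02 (95% interval -0.08 to 0.13, edgeR adjusted p = 0.690).

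In all, 3 of 4 genes were called lower in SMARTseq (10 ng) and 2 of 4 in SMARTseq (100 pg). These comparisons called 77.6% and 69.4% of all genes, and 39.4% and 34.7% of all genes were called lower. All 4 genes had CPM ranges below those of NEBNext in both SMARTseq experiments, as had 41.5% and 35.8% of all genes. The 2 comparisons share the NEBNext libraries and are not independent. A call was therefore common, and sizes say more. A log2 difference of -2 or lower, which *Cubn* reached in SMARTseq (10 ng), was seen in 4.08% of genes, and one of -1 or lower, which *Lrp2* reached in both, in 17.4% and 16.6%. The scaling matters here. Without TMM the median of all genes was -0.39 in SMARTseq (10 ng) and -0.40 in SMARTseq (100 pg) instead of -0.03 and -0.04, the share of calls that were lower was 64.9% in both instead of 50.8% and 50.04%, and *Amn* and *Dab2* were called lower in both comparisons (log2 differences between -0.33 and -0.51).

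**Figure D1:**
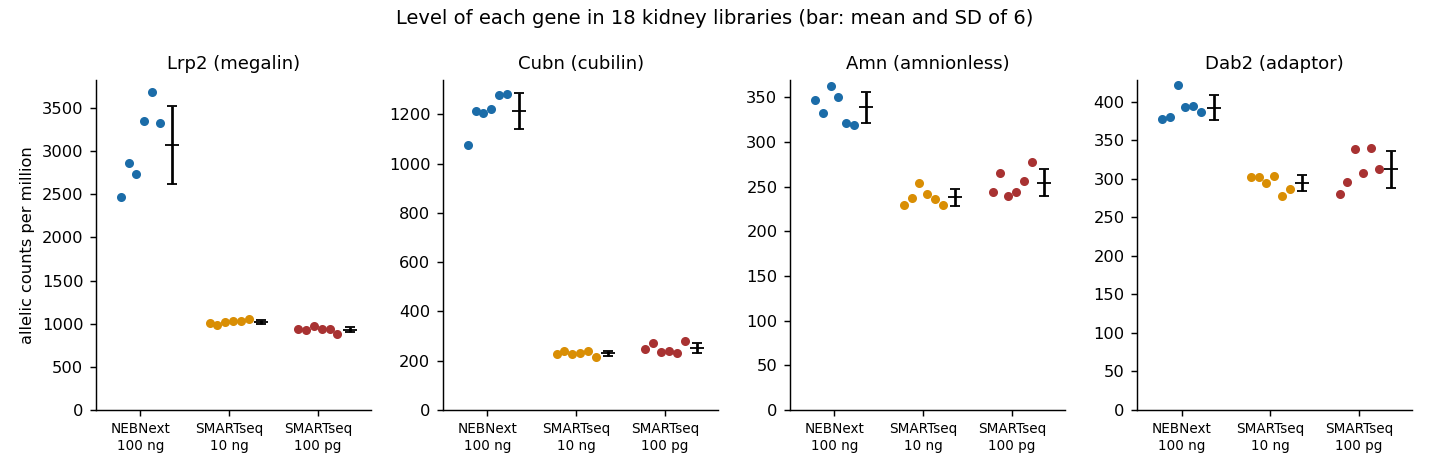
CPM (linear axis from 0) of each gene in the 18 kidney libraries, with 1 point per library and a bar for the mean and SD of 6. The NEBNext libraries of Lrp2 (2473 to 3691) and Cubn (1078 to 1281) lie far above all SMARTseq libraries, and those of Amn and Dab2 lie a little above.

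The 2 SMARTseq experiments share the kit and differ in input, 10 ng against 100 pg, and in the set of preparation. *Lrp2* was the 1 gene of 4 called, in a comparison that called 15.7% of all genes and 6.95% as lower. Its 6 libraries at 100 pg were all below the 6 at 10 ng, as were 4.08% of all genes, and the difference was 1.10-fold (log2 difference -0.14, SE 0.023, edgeR adjusted p = 2.92e-04). *Cubn* pointed the other way, with a log2 difference of 0.12 (SE 0.050, edgeR adjusted p = 0.123). The values for *Amn* and *Dab2* were 0.09 and 0.08 (edgeR adjusted p = 0.173 and 0.291), and for these 3 genes the libraries of both experiments overlapped.

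Ratios of 2 members within a library need no scaling between libraries. The ratio of *Cubn* to *Amn* counts, the subunits of cubam, ranged from 3.10 to 4.02 in NEBNext, from 0.896 to 1.01 in SMARTseq (10 ng) and from 0.903 to 1.02 in SMARTseq (100 pg). It was 3.59 ± 0.362 (SD, n = 6) in NEBNext and 0.963 ± 0.0458 and 0.981 ± 0.0422 (SD, n = 6) in the SMARTseq experiments. Both gaps to NEBNext gave the smallest p that 6 against 6 libraries allow (two-sided exact permutation test, p = 0.00216, Benjamini-Hochberg adjusted p = 0.00390 over 18 tests), and the SMARTseq experiments gave p = 0.513 (exact permutation test, adjusted p = 0.577). The ratio of *Lrp2* to *Cubn* was 2.53 ± 0.257 (SD, n = 6) in NEBNext, 4.46 ± 0.270 in SMARTseq (10 ng) and 3.75 ± 0.382 in SMARTseq (100 pg). All 3 pairs of experiments differed, and the pair of SMARTseq experiments did so with overlapping ranges (exact permutation test, p = 0.00433, adjusted p = 0.00649). The ratio of *Lrp2* to *Amn* fell from 9.13 ± 1.69 (SD, n = 6) in NEBNext to 4.29 ± 0.201 and 3.67 ± 0.309, again without overlap (exact permutation test, adjusted p = 0.00390). The ratio of *Amn* to *Dab2* was between 0.707 and 0.919 in all 18 libraries, and none of its 3 differences passed the adjusted exact permutation test (adjusted p = 0.0529, 0.288 and 0.823). These ratios were chosen after the levels had been seen and rest on the same counts, so their tests add no independent support. The ratio of counts between genes reflects SNP number, which is the same in every library, and has no absolute meaning. Whether its change between experiments depends on where the SNPs lie along the transcripts was not tested.

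**Figure D2:**
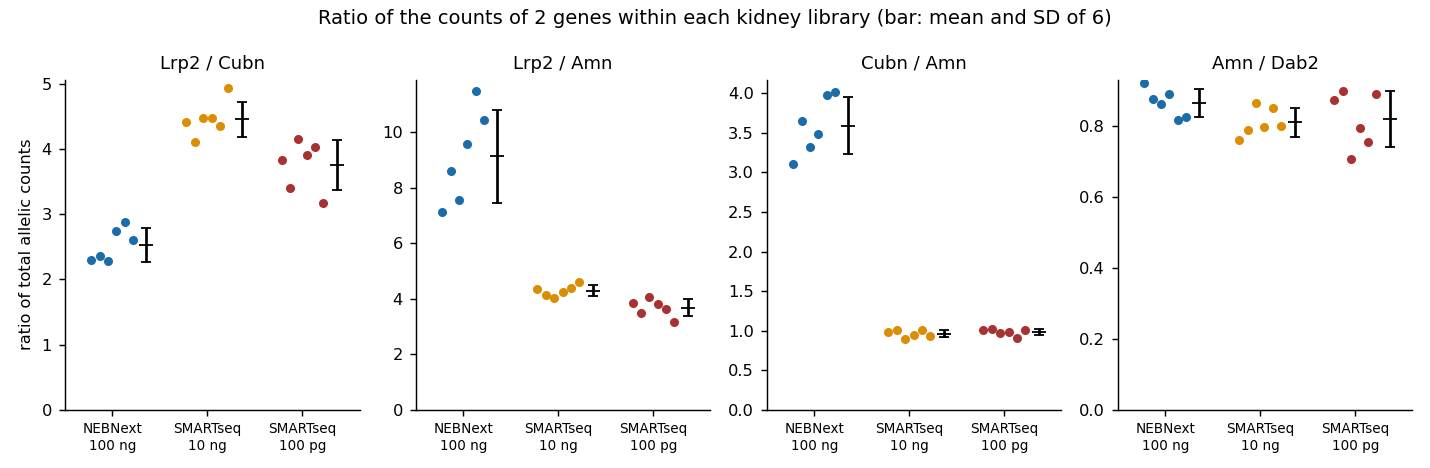
Ratio of the total allelic counts of 2 genes within each kidney library (linear axes from 0), with 1 point per library and a bar for the mean and SD of 6. Cubn over Amn falls from between 3.10 and 4.02 in NEBNext to about 1 in both SMARTseq experiments, Lrp2 over Amn falls less, Lrp2 over Cubn rises, and Amn over Dab2 lies between 0.707 and 0.919 throughout.

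Length was examined because *Lrp2* is longer than 98.3% and *Cubn* longer than 97.2% of the genes tested. Between NEBNext and SMARTseq (10 ng), the median log2 difference was 1.63 for 457 genes with under 1 kb of exons and 1.17 for 1284 genes of 1 to 2 kb. It decreased through 0.45 (2 to 3 kb), -0.09 (3 to 5 kb) and -0.41 (5 to 10 kb) to -0.48 for 1175 genes of at least 10 kb. For SMARTseq (100 pg) against NEBNext the medians ran from 1.58 to -0.56, and between the SMARTseq experiments they stayed between -0.05 and 0.03. Across genes, which are not independent replicates, length and log2 difference had a Spearman rho of -0.454, -0.481 and -0.0544 in these 3 comparisons. Base composition moved with length, with a median GC content of 53.3% under 1 kb and 46.8% at 10 kb or more, and the parts of the 2 were not tested.

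Both receptors lay below the median of genes of their own length. Of the 1175 genes of at least 10 kb, 318 were at or below -1 in SMARTseq (10 ng), and *Cubn* was the 58th and *Lrp2* the 231st from the lowest. Among other genes of that length with a GC content within 2 points, 4 of 347 were lower than *Cubn*, whose value of -2.05 compares with their median of -0.32, and 45 of 282 were lower than *Lrp2*, with a median of -0.62. In SMARTseq (100 pg) these numbers were 8 of 349 and 39 of 281. *Amn* departed from its length class more than its small difference shows. Genes of 1 to 2 kb had a median of 1.17, genes of that length and like GC content a median of 0.97, and *Amn* with -0.15 was above only 9 of 60 of the latter. *Dab2*, with -0.06, lay near the median of -0.09 of 889 genes of its length and GC content. In SMARTseq (100 pg) *Amn* was above 12 of 61. Thus *Cubn* was among the lowest genes of its length and GC content. *Lrp2* and *Amn* were below the median without being extreme, and *Dab2* was not below it. These comparisons are descriptions of rank, and the GC window was chosen after the values had been seen.

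**Figure D3:**
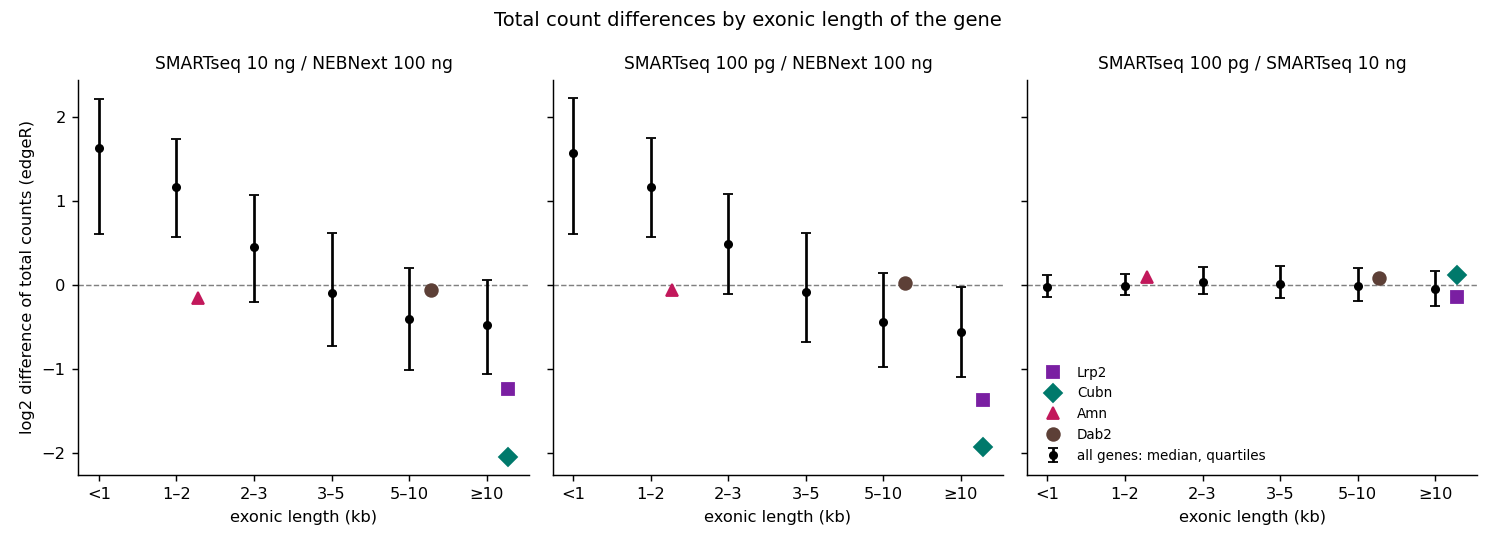
Log2 difference of total counts (edgeR, TMM scaled) against exonic length class in kb for the 3 comparisons, with black points and bars for the median and quartiles of all tested genes and coloured symbols for the 4 genes. Medians decrease from 1.63 to -0.48 and from 1.58 to -0.56 with length in the comparisons with NEBNext and stay near 0 between inputs, and in both comparisons with NEBNext Cubn and Lrp2 lie below the lower quartile of the longest class.

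The longest genes by merged exons, with at least 100 counts in every kidney library, did not all behave alike. Merged exons can exceed any single transcript, as they do for *Cubn* and *Dab2*, so these genes need not have transcripts of that length. *Dst*, a cytoskeletal linker with 41.2 kb of exons, was lower in SMARTseq (10 ng) with a log2 difference of -1.42 (edgeR adjusted p = 2.07e-13). *Ank3* (34.8 kb) and *Ankrd17* (35.5 kb) were lower by smaller amounts, with -0.39 and -0.29 (edgeR adjusted p = 2.08e-07 and 0.00133). *D10Wsu102e* (123.2 kb) and *D1Ertd622e* (41.3 kb) had -0.04 and 0.12 (edgeR adjusted p = 0.471 and 0.236). From 10 ng to 100 pg, *Ank3* was lower with -0.22 and *Dst* was higher with 0.21 (edgeR adjusted p = 0.0122 and 0.0424).

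The libraries of an experiment also differed among themselves, most of all for *Lrp2* with NEBNext. Its CPM was 2473, 2862 and 2740 in replicates 1, 2 and 3 and 3357, 3691 and 3327 in replicates 4, 5 and 6. The coefficient of variation was 14.8%, where independent counting alone would give 0.717%. The true counting error may be larger, since a read with several SNPs counts at each of them. The coefficient was the 5th highest of 520 genes that averaged 2000 counts or more, whose median was 4.17%. In the SMARTseq experiments *Lrp2* varied by 2.36% and 2.99%, near the medians of 2.25% and 4.03% of such genes. *Cubn* had its lowest NEBNext value in replicate 1 as well, at 1078 CPM against 1205 to 1281 in the other 5. *Dab2* was also lowest there, but by little, at 378 CPM against 380 in replicate 2, and *Amn* was not. Over 407 other genes of at least 10 kb, the median log2 deviation from the experiment's mean was -0.08 in that library. The paper treats that library as an outlier in AI and leaves it out of some analyses. Without it, the log2 difference between SMARTseq (10 ng) and NEBNext was -1.29 for *Lrp2* and -2.08 for *Cubn*.

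*Cubn* leaned to the maternal column, and *Lrp2* and *Dab2* were close to 0.5. *Amn* was close to 0.5 in NEBNext and SMARTseq (100 pg) and lay below it in SMARTseq (10 ng), without passing the adjusted test. The values of *Cubn* come first. In NEBNext the AI of *Cubn* ranged from 0.554 to 0.575 (median 0.564), in SMARTseq (10 ng) from 0.543 to 0.584 (median 0.559) and in SMARTseq (100 pg) from 0.480 to 0.611 (median 0.534). All 12 libraries of the first 2 experiments were above 0.5, and 1 library at 100 pg was below it. The AI over pooled counts was 0.565 (95% interval corrected for overdispersion 0.556 to 0.573) and 0.561 (0.546 to 0.576), and both passed the QCC-corrected proportional test after Bonferroni adjustment (adjusted p = 3.00e-47 and 7.87e-11). QCC is the Quality Correction Coefficient, the factor by which AI varies between replicate libraries beyond binomial sampling. It averaged 1.84, 1.47 and 2.59 in NEBNext, SMARTseq (10 ng) and SMARTseq (100 pg), and 1.73 in NEBNext without replicate 1. At 100 pg the pooled AI of *Cubn* was 0.534 (0.509 to 0.559) and did not pass (unadjusted p = 0.00893, Bonferroni adjusted p = 1).

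*Lrp2*, with the most counts, had the narrowest ranges. Its AI was 0.514 to 0.524 (median 0.516) in NEBNext, 0.505 to 0.517 (median 0.509) in SMARTseq (10 ng) and 0.483 to 0.535 (median 0.5002) in SMARTseq (100 pg). The NEBNext value of 0.518 (0.512 to 0.523) passed (Bonferroni adjusted p = 5.28e-07), although it is 0.018 from equality, and the other experiments did not, with pooled values of 0.509 and 0.502. *Amn* had 0.477 to 0.508 (median 0.499), 0.443 to 0.478 (median 0.468) and 0.447 to 0.562 (median 0.494). All 6 of its libraries at 10 ng were below 0.5, with a pooled AI of 0.465 (0.451 to 0.481, Bonferroni adjusted p = 0.0737). *Dab2* had 0.467 to 0.497 (median 0.492), 0.471 to 0.510 (median 0.489) and 0.427 to 0.519 (median 0.497), and no experiment called it. The test called 2 of the 4 genes in NEBNext, 1 in SMARTseq (10 ng) and none in SMARTseq (100 pg), beside 18.4%, 24.4% and 14.2% of all genes. The maternal column held 46.6% to 48.3% of all kidney counts. Its name is kept as deposited, but 11 of 11 imprinted genes with at least 50 counts had their counts on the side opposite to the names, among them *Peg3* at 0.9995 and *Cdkn1c* at 0.00930, with *Phlda2* near the middle at 0.460. The strain that *Cubn* leans to is therefore not named here.

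**Figure D4:**
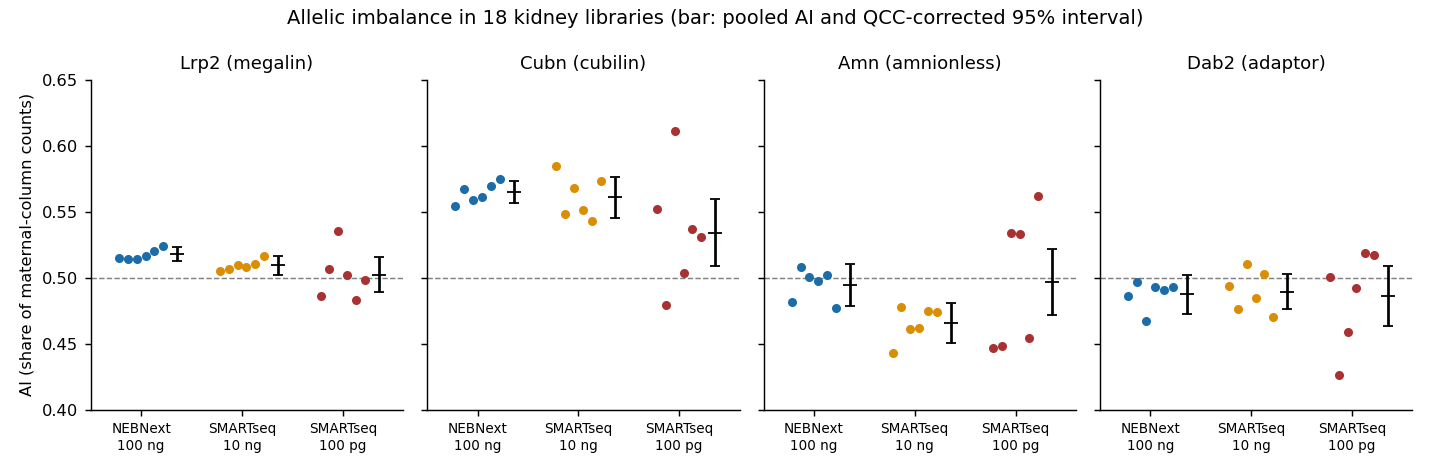
Allelic imbalance (share of counts in the maternal column, axis from 0.40 to 0.65) of each gene in the 18 kidney libraries, with 1 point per library, a bar for the pooled value with its QCC-corrected 95% interval and a dashed line at 0.5. Cubn lies above 0.5 in all 12 libraries made from 100 ng or 10 ng, and the libraries made from 100 pg scatter most for every gene.

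No gene differed in AI between experiments in edgeR's allele by experiment term. The count was 0 of 4 in each comparison, where 10.6%, 6.24% and 0.659% of all genes were called, and DESeq2, limma and the QCC-corrected two-sample test also called 0 of 4. At an unadjusted p under 0.05, edgeR listed *Amn* between SMARTseq (10 ng) and NEBNext, *Lrp2* between SMARTseq (100 pg) and NEBNext, and none between the inputs. The nearest to a call was *Amn*, with a mean AI of 0.465 ± 0.0129 in SMARTseq (10 ng) against 0.494 ± 0.0123 in NEBNext (SD, n = 6 each; log2 odds ratio -0.17, SE 0.060, edgeR adjusted p = 0.0744). Beside the 4.13-fold difference in *Cubn* counts between NEBNext and SMARTseq (10 ng), the difference in mean AI was -0.00319 (log2 odds ratio -0.02, 95% interval -0.11 to 0.07). For *Lrp2* the same log2 odds ratio was -0.05 (95% interval -0.10 to 0.005).

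The spread of AI between libraries of one experiment was largest at 100 pg for all 4 genes. *Amn* had an SD of 0.0123 in NEBNext, 0.0129 in SMARTseq (10 ng) and 0.0522 in SMARTseq (100 pg). Of its libraries at 100 pg, 3 lay at 0.447, 0.448 and 0.455 and 3 at 0.533, 0.534 and 0.562. The mean distance from the experiment's median was 0.0466 at 100 pg against 0.01002 at 10 ng and 0.00907 in NEBNext, and both differences passed (two-sided exact permutation test, p = 0.00216, the smallest possible, adjusted p = 0.0130 over 12 tests). The same distances were 0.0310, 0.0139 and 0.00631 for *Cubn*, 0.0265, 0.0126 and 0.00644 for *Dab2* and 0.0128, 0.00303 and 0.00293 for *Lrp2*, and none of their differences passed the adjusted exact permutation test (lowest adjusted p = 0.0693). *Amn* had about as many counts at 100 pg (1575 to 1838 per library) as at 10 ng (1462 to 1626). At 100 pg the SD was 4.27 times the binomial SD for *Amn*, 3.66 for *Cubn*, 3.29 for *Dab2* and 2.93 for *Lrp2*, and genes with nearly as many counts had medians between 2.35 and 2.42. The binomial SD takes all counts as independent, although a read with several SNPs counts at each of them. In NEBNext the 4 genes were at 1.06 to 1.36 times, below the medians of 1.77 to 2.43 of such genes, which for *Lrp2* were only 7.

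The same comparisons were made for the other genes of the pathway. In the LDL receptor family, 9 of 12 listed relatives of megalin were tested and all 9 were lower in both SMARTseq experiments than in NEBNext, also without TMM scaling, beside 39.4% and 34.7% of all genes. Most of them have over 5 kb of exons. Of all genes of 5 to 10 kb, 54.5% and 50.1% were called lower, and of those of at least 10 kb, 59.8% and 56.8%. The median log2 difference of the relatives was -0.92 in SMARTseq (10 ng) and -1.11 in SMARTseq (100 pg), beside -0.03 and -0.04 for all genes. The largest differences were those of the Wnt co-receptor *Lrp5*, at -3.79 and -3.39, and of *Lrp4*, at -1.68 and -2.23. *Lrp5* had few counts with SMARTseq, with means of 1.54 CPM at 10 ng and 2.04 CPM at 100 pg against 27.6 CPM in NEBNext. From 10 ng to 100 pg, *Lrp4* was lower with a log2 difference of -0.55 and *Lrp6* with -0.19, and *Lrp10* was higher by 0.30 (edgeR adjusted p = 0.0328, 0.0457 and 0.00207), and without TMM scaling 1 relative in place of 2 was lower. Of all genes, 8.77% were higher and 6.95% lower at 100 pg.

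Among 19 adaptors and coat proteins, 14 were lower and 4 higher in SMARTseq (10 ng), and 13 and 4 in SMARTseq (100 pg), with medians of -0.60 and -0.55. Both shares of lower genes were above those of all genes (39.4% and 34.7%), and without TMM scaling 15 were lower and 2 higher in each. The subunits of the AP-2 adaptor complex were split. In SMARTseq (10 ng), the log2 difference was 1.37 for *Ap2s1* (1.47 kb) and 0.79 for *Ap2m1* (4.12 kb), but -1.42 for *Ap2a1* (4.30 kb), -0.87 for *Ap2a2* (5.66 kb) and -1.40 for *Ap2b1* (8.76 kb). In SMARTseq (100 pg) they lay on the same sides, at 1.41, 0.84, -1.20, -0.88 and -1.75. *Epn1*, an endocytic adaptor with only 2.81 kb of exons, was among the lowest at -2.44 and -2.94, and the scaffold *Itsn1* was at -1.81 in SMARTseq (10 ng). *Itsn1* had few counts, with means of 3.24 CPM there and 14.6 CPM in NEBNext. Between inputs, the dynamin *Dnm2* was higher at 100 pg by 0.67, and *Ap2b1* and *Picalm* were at -0.35 and -0.34.

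Of 23 genes of endosomes, recycling and acidification, 18 were tested, and *Clcn5*, *Ocrl*, *Ctns* and *Lamp2* were listed at 0 in all kidney libraries. X-linked genes, *Clcn5*, *Ocrl* and *Lamp2* among them, had no kidney counts and were not analysed here. In SMARTseq (10 ng) 9 were higher and 7 lower, in SMARTseq (100 pg) 8 and 7, which is near the shares of all genes (38.1% higher and 39.4% lower, and 34.7% each). Without TMM scaling it was 5 and 11, and 4 and 12. The small GTPases *Rab14* and *Rab4a* were higher by 2.38 and 1.31 in SMARTseq (10 ng), and *Rab14* has 13.6 kb of merged exons. The sodium-proton exchanger *Slc9a3* was at -2.97 in both experiments and the recycling protein *Ehd1* at -2.13 and -1.27. *Slc9a3* had few counts with SMARTseq, with means of 3.44 CPM at 10 ng and 3.45 CPM at 100 pg against 34.7 CPM in NEBNext. *Ehd1* was also higher by 0.86 at 100 pg than at 10 ng, while the proton pump subunit *Atp6v0a4* was at -0.77 and *Rab5c* at -0.53.

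Of 15 genes for the chaperone, the ligands and their handling, 14 were tested. In each SMARTseq experiment 10 were higher and 3 lower than in NEBNext, where 38.1% and 34.7% of all genes were higher and 39.4% and 34.7% lower, with medians of 0.37 and 0.60. Without TMM scaling 6 were higher and 5 lower in SMARTseq (10 ng), and 8 and 3 in SMARTseq (100 pg). The short ligand genes *B2m* (0.86 kb) and *Rbp4* were higher by 1.72 and 1.73 in SMARTseq (10 ng), and *Lrpap1*, the chaperone of megalin, by 1.44 (edgeR adjusted p = 1.14e-27), opposite to its client. *Rbp4* had few counts, with means of 2.59 CPM in NEBNext and 6.76 CPM in SMARTseq (10 ng), where *B2m* had 1292 CPM. The vitamin D receptor *Vdr* was at -1.08 and -0.86 and albumin, *Alb*, at -0.43 and -0.59. At 100 pg *Fcgrt*, the albumin and IgG recycling receptor, was higher than at 10 ng by 0.85 and *Vdr* by 0.22.

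The genes whose profile over the 18 kidney libraries was nearest to each member, among 4729 genes with at least 100 counts in every library, were not genes of the pathway. By root mean square difference of centred log2 levels, *Lrp2* was nearest to the calcium pump gene *Atp2a2* (0.119), *Car12* (0.124) and *Sptan1* (0.131). *Cubn* was nearest to *2610507B11Rik* (0.119), *Eef2* (0.135) and *Col27a1* (0.163), of which *Eef2* has only 3.32 kb of exons. *Amn* was nearest to *Fkbp5* (0.0735), *4833439L19Rik* (0.0749) and *Sdha* (0.0773), and *Dab2* to *Dgat2* (0.0765), *Ctsb* (0.0788) and *Abhd14b* (0.0790).

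The Abl clones express B-lineage markers (4889 to 6786 CPM summed over 6 markers, against 8.50 to 22.2 in kidney) and had few or no counts for the receptor complex. *Lrp2* had 0 counts in all 4 libraries and both second runs, which allows up to 0.156 CPM by 3 counts in the shallowest. *Dab2* had 94 counts in each Abl.1 library (4.89 and 4.23 CPM), of which 89 and 85 lay in the paternal column, and 0 in every Abl.2 run. *Amn* had 0 to 4 counts per run. *Cubn* had 18 and 3 counts in Abl.1 and 32 and 62 in Abl.2, but the second runs of the same Abl.2 libraries gave 1 and 7. The limit set by 3 counts covers counting error only, since the counts do not show which reads were PCR copies of the same molecule.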

How the data were processed

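The authors aligned reads (single-end for the kidney) with STAR 2.5.4a to 129S1 and Cast/Ei pseudogenomes on GRCm38, kept unique alignments, sampled reads to equal numbers within an experiment, and summed allele counts at SNPs over merged exons outside regions that genes share. A read with several SNPs counts at each of them. The deposited values are whole-number counts of both alleles, without normalization. Kidney libraries hold 6138693 to 6702351 counts and Abl runs 19213150 to 22410835. The deposited AI tables, which hold the authors' pooled fractions and limits, were not used.

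The 4 members and all gene lists were chosen with earlier results of these data known. Samples were grouped by title. Total counts were compared pairwise with edgeR's quasi-likelihood test (TMM, at least 10 counts in at least 6 libraries, Benjamini-Hochberg at 0.05), and AI by the allele by experiment interaction, with library and allele as further terms (at least 10 counts in all libraries). AI against 0.5 used the proportional test on pooled counts divided by the squared mean QCC of 15 pairs, with Bonferroni adjustment and Wilson intervals. QCC was fitted at 7 quantiles in coverage bins (base 1.05, minimum of 40 genes and a coverage of 50), after the authors' procedure. Spread was tested as mean distance from the median. Like genes have mean counts within 1.25-fold. Lengths are from GENCODE M21 (GRCm38), found for 11913 of 12012 tested genes. Named genes beyond the members are the 2 largest per direction in each list, the 3 nearest profiles (log2 CPM with 0.5 added) and the 5 longest genes, and 1 gene under this rule is not reported here. *Lrpap1*, *Ap2a1*, *Ap2a2* and the ratios were added after their values were seen. Alternatives were library totals, DESeq2, limma, other filters, a replicate block, no QCC, other lengths and leaving out NEBNext replicate 1. The procedures were tested on simulated data. R 4.3.3, edgeR 4.0.16, DESeq2 1.42.0, limma 3.58.1, Python 3.11.15, scipy 1.17.1, numpy 2.4.6, pandas 2.3.3 and matplotlib 3.10.9 were used.

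Same-numbered libraries of different experiments did not deviate together (r between -0.0351 and 0.0290 across genes).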

Additional observations from a re-analysis of the deposited data

Results flagged for a closer look

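In NEBNext (100 ng), *Cubn* in replicate 1 stood apart at 1078 CPM, below the other 5 libraries by 0.627 of the whole range, just past Dixon's limit. That library is the one the paper treats as an outlier. *Dab2* in replicate 3 of the same experiment stood apart in AI, at 0.467, by 0.632 of the range. Chance flags about 1 in 20 groups, and 24 were examined.

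Outside the kidney comparisons, counts above the limit that a count of 0 allows were found in the Abl clones. *Dab2* had 94 counts in both Abl.1 libraries. *Cubn* had 18 counts in Abl.1 replicate 1, 32 and 62 in Abl.2 replicates 1 and 2, and 7 in the second run of replicate 2. *Amn* had 4 counts in Abl.2 replicate 2 and 4 in the second run of replicate 1.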

How the results depend on the processing

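Of 270 values under alternatives, 228 kept their direction and side of the threshold or stayed within 1.5 times, or within the spread between libraries. The calls of *Lrp2* and *Cubn* in total counts held under all alternatives run. With library totals in place of TMM, *Dab2* was called lower in SMARTseq (10 ng) at -0.41 and in SMARTseq (100 pg) at -0.33, where the sign turned, and *Amn* in SMARTseq (100 pg) at -0.41. By construction the scalings differ by one shift for all genes. *Dab2* in SMARTseq (100 pg) against NEBNext was also at -0.00598 with no filter.

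For AI between SMARTseq (10 ng) and NEBNext, a minimum of 100 counts called *Amn* (log2 odds ratio -0.17, edgeR adjusted p = 0.0476; 0.0522 to 1 under the other alternatives), where fewer genes were tested. Uncalled signs turned for *Cubn* (0.00117 with alleles scaled separately, SMARTseq (10 ng) against NEBNext), *Dab2* (0.0108 likewise, SMARTseq (100 pg) against NEBNext) and *Amn* (-0.00347 without NEBNext replicate 1, SMARTseq (100 pg) against NEBNext). The spread of *Lrp2* between SMARTseq (10 ng) and NEBNext turned from 9.56e-05 to -3.23e-04 when thinned and -1.82e-04 without replicate 1.

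The count of 1069 genes with an AI difference between SMARTseq (10 ng) and NEBNext was 691 with limma and 433 with the QCC-corrected test. For SMARTseq (100 pg) against NEBNext, 607 became 286 with the latter. Between inputs, 66 became 101 with DESeq2, 26 with limma and 28 with the replicate block. The block changed no call of the 4 genes, and with 0, 1 and 2 of 6 libraries nearest to their own number the numbers were not taken as pairs.

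Against 0.5, *Amn* in SMARTseq (10 ng) at 0.465 was called without QCC, with Benjamini-Hochberg adjustment and by edgeR's allele term, *Lrp2* there at 0.509 by the last 2 (0.509 each), and *Cubn* in SMARTseq (100 pg) at 0.534 without QCC and with Benjamini-Hochberg adjustment. Genes called were 3827, 4009 and 3758 in NEBNext without QCC, with Benjamini-Hochberg and with edgeR, in place of 2010. They were 4857 and 4726 in SMARTseq (10 ng) with the last 2, in place of 2620, and 4104, 3034 and 2627 in SMARTseq (100 pg), in place of 1452.

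The median log2 difference of the longest genes was -0.48 in SMARTseq (10 ng) and -0.56 in SMARTseq (100 pg) against NEBNext. As many genes of the longest genomic span gave -0.36 and -0.41, of the longest coding length -0.87 and -0.85, and of the longest transcript, chosen after seeing the data, -0.62 and -0.69. Genes with at least 100 counts in every library gave -0.37 and -0.44, and library totals -0.83 and -0.91. Between inputs, coding length turned -0.0499 to 0.0456. The cause of these moves was not tested. Counts per library were fewest on average for *Amn* and *Cubn* with SMARTseq, at 1364 to 1843. At 100 pg their SD of AI was 4.27 and 3.66 times the binomial SD, which takes all counts as independent.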
